A study of Rattus norvegicus with 17 samples.

Results

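The collagen genes were followed as a family in tumour tissue of rats given NVP-BEZ235, a drug that inhibits both phosphoinositide 3-kinase and mTOR. Members were all genes whose array probe set carried a single symbol of the form Col, number, a, number, and each gene was represented by its probe set of highest mean. This gave 25 of the 14506 genes tested. They comprised 10 fibrillar collagens, 3 chains of basement membrane type IV and 12 of other types. Of the 25 genes, 24 had 1 probe set, and Col6a4 had 3. The rat reference table lists 44 collagen symbols, and the 19 others, among them Col4a2, Col6a1, Col6a2, Col6a3, Col15a1 and Col18a1, were not analysed here.

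RNA was measured on 17 Affymetrix arrays of tissue from 8-month-old rats of Sprague-Dawley white eye/Wistar-Kyoto background. All groups, the controls included, carry a mutation of the gene of the cell cycle inhibitor p27Kip1 (written Cdknb1 in the labels). The sample labels call it homozygous and the series' design text calls it heterozygous. The 7 controls received PEG at 20 mg/kg (5 female, 2 male). NVP-BEZ235 was given at 20 mg/kg to 6 samples (4 female, 2 male) and at 30 mg/kg to 4 samples (3 female, 1 male). The length of treatment is not given, the treatment protocol field names no treatment, and separate animals are not stated, so the p-values cover only the spread among these samples, which may be technical. Sample titles number the 30 mg/kg samples 1 to 4, the 20 mg/kg samples 5 to 10 and the controls 1 to 7, so the dose cannot be told apart from the set of title numbers.

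The tissue is labelled pituitary adenoma, whereas the title of the series speaks of pheochromocytoma, which arises in the adrenal medulla. The defining markers were those of the adrenal gland. Th averaged 12.29 and Dbh 12.32 on the log2 scale, which are enzymes of catecholamine synthesis in chromaffin cells, and Cyp11a1 averaged 12.02 and Star 12.11, which serve steroid synthesis in the adrenal cortex. The 7 pituitary hormone genes averaged between 3.86 (Gh1, growth hormone) and 5.61 (Prl, prolactin). Gh1, Fshb and Tshb were below the array median on all 17 arrays. Prl was above the upper quartile on 2 arrays, with 9.16 in control 2, and Pomc on 1, with 7.86 in 30 mg/kg replicate 3. The arrays had medians between 4.95 and 5.11 and upper quartiles between 6.85 and 7.10.

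Collagens are secreted proteins of the extracellular matrix in which chains wind into a triple helix. Types I, III and V form the fibrils of connective tissue, and fibroblasts and other stromal cells make most of them. Type IV builds the sheet-like network of basement membranes under epithelia and around capillaries. Types XII and XIV sit on the surface of fibrils, and other types serve cartilage, anchoring fibrils or cell membranes. Procollagen chains are folded in the endoplasmic reticulum with Serpinh1 and the prolyl hydroxylases, trimmed outside the cell and then crosslinked.

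Most collagen genes had low or middling array signal. The 25 means lay between the 27.6th and the 74th percentile of all genes, with a median at the 42.5th. Col12a1, Col4a1 and Col1a2 lay above the upper quartile on 12, 4 and 1 arrays, and no other member did so on any. Col5a2, Col5a3, Col8a1, Col9a1 and Col17a1 lay below the median on all 17 arrays. Differences of dim probe sets are compressed on this scale. In bulk tissue, fewer cells that make a collagen and less collagen RNA per cell cannot be told apart.

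Lower type III collagen was the change that passed the test with both doses pooled. Col3a1, the chain of the thin fibrils of soft tissue, fell by 0.68 ± 0.11 on the log2 scale (SE; 10 treated against 7 control samples), that is to 62.4% of control. The adjusted p was 0.00644 (limma, Benjamini-Hochberg over all genes). Col3a1 itself had a low to middling signal (mean at the 42.9th percentile, below the median on 5 arrays), so its change may be compressed. It was the only 1 of the 25 collagen genes that passed, and 1.48% of all genes passed in this comparison (0.965% in the lower direction). At an unadjusted p under 0.05 there were 5 collagen genes, all with negative changes (Col3a1, Col1a2, Col1a1, Col14a1 and Col5a2), against 14.4% of all genes and 6.58% with negative changes.

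For both doses against control, the fibrillar collagens had negative changes in 9 of 10 members, with a median of -0.10 and a range of -0.68 to 0.02. All genes had a median of -0.00, with 50.4% negative. The type IV chains had a median of 0.06 and the other types one of -0.00, with 6 members on each side. Against all controls, fibrillar changes were negative in 7 of 10 at 30 mg/kg (48% of all genes) and 9 of 10 at 20 mg/kg (52.7%). They were negative in 9 of 10 at 30 mg/kg against controls 1 to 4 (51% of all genes). At 20 mg/kg against controls 5 to 7 they were negative in 6 of 10 (46.7%).

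**Figure D1:**
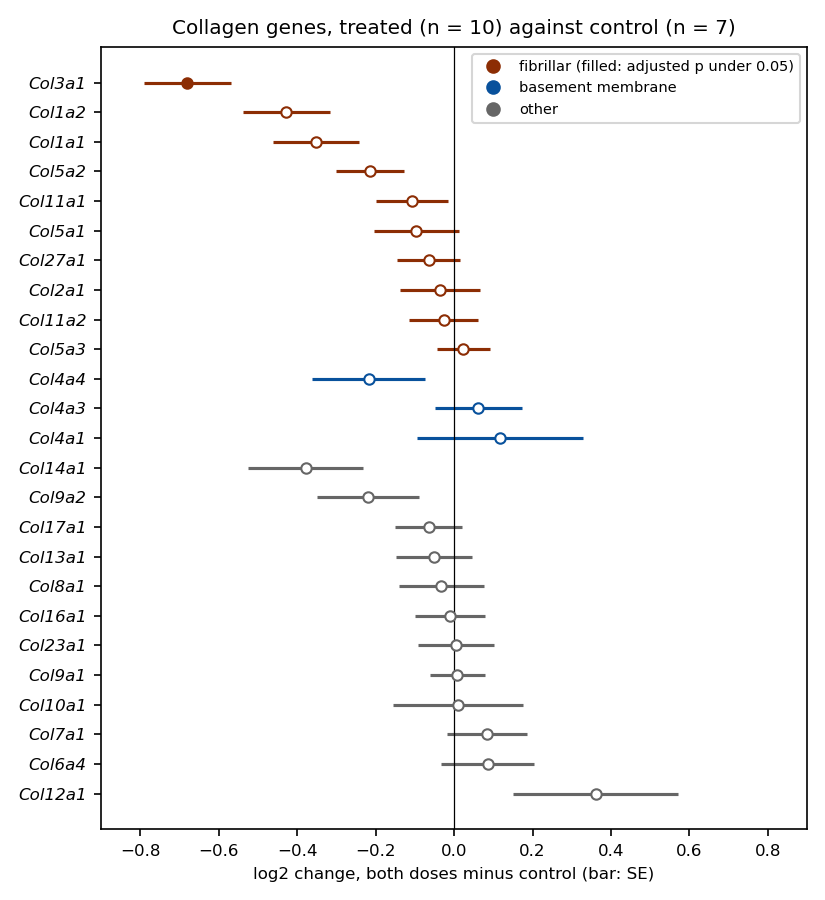
Fitted log2 change of each of the 25 collagen genes, both doses minus control (x axis, log2 units; bars, SE; 10 treated and 7 control samples), grouped by class. Col3a1 stands lowest at -0.68 and is the only filled point (adjusted p under 0.05), and 9 of the 10 fibrillar genes lie left of 0.

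Col3a1 read between 5.32 and 6.0 in controls, with a median of 5.57. At 20 mg/kg it lay between 4.81 and 5.22, with a median of 4.93. The 4 samples at 30 mg/kg read 5.06, 5.15, 4.89 and 4.50. The highest of the 10 treated samples was below the lowest control, a separation seen in the lower direction for 24 of 14506 genes (0.165%) and for no other collagen gene. Col3a1 fell by 0.74 at 30 mg/kg (adjusted p = 0.00472, limma) and by 0.64 at 20 mg/kg (adjusted p = 0.0228, limma). The call at 20 mg/kg was lost without control 7 or 20 mg/kg replicate 6, 7 or 8 (highest adjusted p 0.0744), with changes between -0.70 and -0.58. The doses differed by -0.10, with a 95% interval of -0.41 to 0.21. Among female rats alone the change was -0.59 with an adjusted p of 0.141, in a fit where 12 of all genes passed.

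Col1a2, the second chain of type I collagen, read between 6.59 and 7.24 in controls, with a median of 6.74. It ranged from 6.16 to 6.53 at 20 mg/kg, with a median of 6.33. Values at 30 mg/kg were 6.46, 6.46, 6.76 and 5.91. Only the 6.76 of the third sample reached into the control range. The change for both doses was -0.43 ± 0.11 (SE), and its adjusted p of 0.0651 (limma) missed the threshold. It passed when the set of title numbers was a term (adjusted p = 0.0426, limma). In separate fits it also passed with array weights (adjusted p = 0.0187) and without 30 mg/kg replicate 3 (adjusted p = 0.0474).

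The promoter of Col1a2 is shown because it is the most changed fibrillar gene with an entry. In the RefSeq promoter set (build GRCr8), 20 of the 25 genes had an entry. Those without were Col1a1, Col2a1, Col3a1, Col12a1 and Col14a1. The stretch printed covers chr4:33518307-33518406 on the plus strand and ends 151 bases before the base where the gene starts. Capitals mark the letters ATTGG, which read as CCAAT on the other strand, and the letters of a TATA box.
Col1a2: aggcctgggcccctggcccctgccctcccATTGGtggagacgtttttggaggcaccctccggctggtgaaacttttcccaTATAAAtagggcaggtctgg
Counting from its first base, ATTGG starts at base 30 and the TATA box letters, TATAAA, at base 81. In the 250 bases before the start, on either strand, TATAAA occurred in 4 of the 20 collagen promoters and in 12.9% of all 33469 promoters. CCAAT occurred in 7 of the 20 and in 34.0% of all. GGGCGG occurred in 11 of the 20 and in 30.5% of all. These are matches of letters and were not tested as binding sites.

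Col1a1, the main chain of type I collagen, was lower at 20 mg/kg. Controls lay between 6.50 and 6.85, with a median of 6.61. At 20 mg/kg the values ran from 5.90 to 6.39, with a median of 6.11, and all lay below the lowest control. The share of all genes separated in this way from all 7 controls was not counted. Against controls 5 to 7 alone it was 2.9% of all genes and 3 of the 25 collagen genes. The 30 mg/kg samples read 6.38, 6.67, 6.72 and 6.26, of which 6.67 and 6.72 lay inside the control range and 6.38 and 6.26 inside that of 20 mg/kg. Col1a1 fell by 0.51 ± 0.10 at 20 mg/kg (SE; adjusted p = 0.0221, limma), to 70.5% of control, a call lost without control 7 or 20 mg/kg replicate 6, 7, 8 or 10 (highest adjusted p 0.0681). Its change at 30 mg/kg was -0.12 with an adjusted p of 0.56 and a 95% interval of -0.36 to 0.11.

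Col5a2, which co-assembles with type I fibrils and lies next to Col3a1 on chromosome 9, 38189 bases away, showed a change of -0.22 with an adjusted p of 0.255 (limma). It read between 4.43 and 4.90 in controls (median 4.57), between 4.22 and 4.60 at 20 mg/kg (median 4.38), and 4.68, 4.39, 4.43 and 4.30 at 30 mg/kg, so the groups overlapped. Col11a1, a minor fibrillar chain of cartilage, had a change of -0.11 (adjusted p = 0.686, limma). It read between 5.43 and 6.11 in controls (median 5.83), between 5.59 and 5.98 at 20 mg/kg (median 5.76), and 5.68, 5.49, 5.8 and 5.36 at 30 mg/kg, again with overlap. The remaining fibrillar genes, Col2a1, Col5a1, Col5a3, Col11a2 and Col27a1, had changes within 0.10 of 0 for both doses together.

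**Figure D2:**
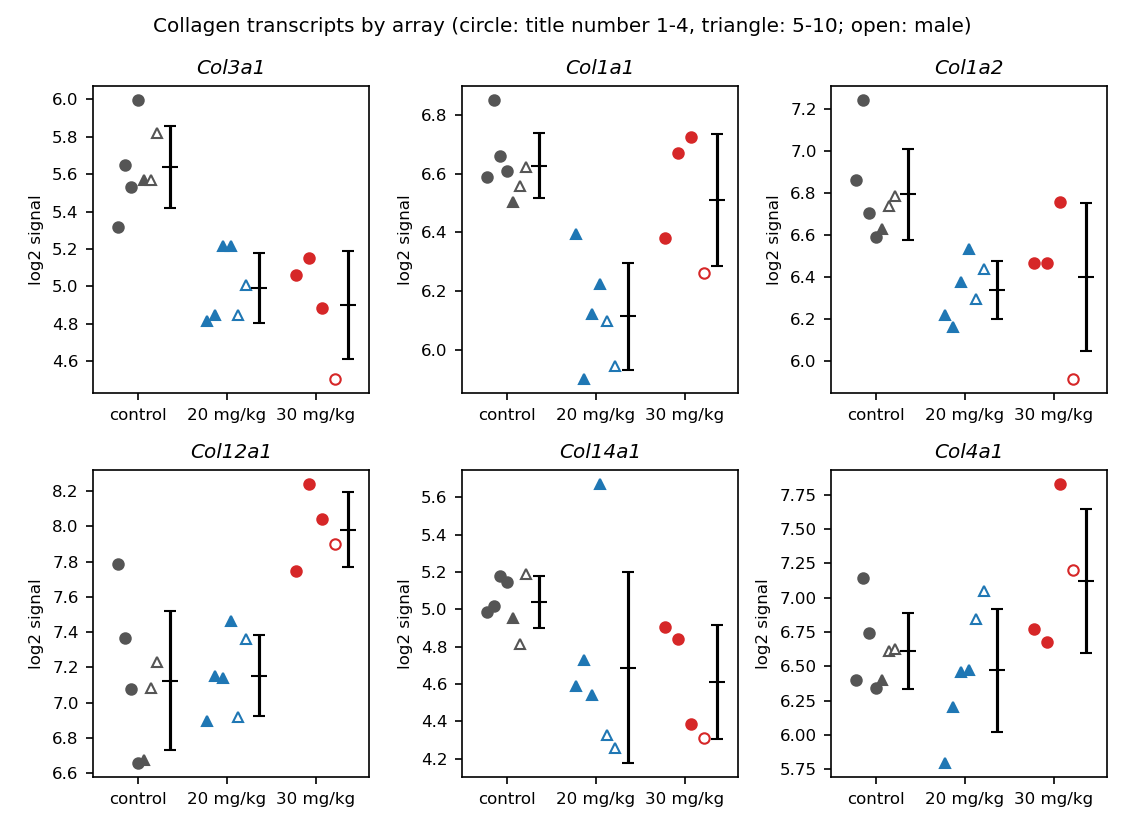
Log2 array values of collagen genes in each of the 17 samples (y axis), with control, 20 mg/kg and 30 mg/kg from left to right. Bars give the mean and SD, circles the title numbers 1 to 4, triangles 5 to 10, and open symbols male samples. All treated samples of Col3a1 lie below the lowest control at 5.32, and all 30 mg/kg samples of Col12a1 lie at or above 7.75.

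No type IV chain passed in any of the comparisons, but with array weights Col4a1 and Col4a4 passed between the doses, in a fit where 16.3% of all genes did. Col4a1, the common chain of basement membranes, read between 6.34 and 7.14 in controls (median 6.61) and between 5.79 and 7.05 at 20 mg/kg (median 6.47). At 30 mg/kg it read 6.77, 6.68, 7.83 and 7.20. The values 7.83 and 7.20 were above every control. Its difference between 30 and 20 mg/kg was 0.67 ± 0.23 (SE) with an adjusted p of 0.0643 (limma).

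Col4a4, a chain of specialised basement membranes such as that of the kidney glomerulus, had values between 5.19 and 5.59 in controls (median 5.44) and between 5.09 and 5.58 at 20 mg/kg (median 5.34). At 30 mg/kg it read 5.0, 5.55, 4.58 and 4.64, so that 3 of the 4 lay below all controls. The change at 30 mg/kg was -0.47 (adjusted p = 0.0775, limma). Its partner chain Col4a3 had a change of 0.02 at 30 mg/kg (adjusted p = 0.957, limma) and of 0.06 for both doses (adjusted p = 0.878). It read between 4.77 and 5.51 in controls (median 5.21), between 4.95 and 5.41 at 20 mg/kg (median 5.24), and 4.84, 5.26, 5.33 and 5.24 at 30 mg/kg, so the groups overlapped throughout.

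Col4a3 and Col4a4 lie head to head on chromosome 9, with 412 bases between their starts, and 88 bases belong to the upstream windows of both. They are shown because they precede both genes. They cover chr9:91323740-91323827, read on the plus strand, the strand of Col4a3, and hold none of the 3 motifs above on either strand.
Col4a3 and Col4a4, shared: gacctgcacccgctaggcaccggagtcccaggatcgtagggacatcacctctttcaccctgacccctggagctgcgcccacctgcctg
In the first 88 of the 250 bases of all promoters, TATAAA occurred in 4.77%, CCAAT in 12.7% and GGGCGG in 9.12%.

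Among the other types, Col12a1, which coats the surface of type I fibrils, read higher at 30 mg/kg. Controls ranged from 6.66 to 7.79, with a median of 7.08. Samples at 20 mg/kg ranged from 6.89 to 7.46, with a median of 7.14. The 30 mg/kg samples read 7.75, 8.24, 8.04 and 7.90. All 4 were above every 20 mg/kg sample, as held for 1 of the 25 collagen genes and for 5.16% of all genes. Only the first of the 4 was below the highest control. Col12a1 rose by 0.86 ± 0.19 at 30 mg/kg (SE; 1.81-fold; adjusted p = 0.0106, limma), while at 20 mg/kg its change was 0.03 (adjusted p = 0.945, 95% interval -0.32 to 0.38).

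Col14a1, a relative of Col12a1 on fibril surfaces, had values between 4.81 and 5.19 in controls (median 5.02), between 4.26 and 5.67 at 20 mg/kg (median 4.57), and 4.91, 4.84, 4.39 and 4.31 at 30 mg/kg. Replicate 8 at 20 mg/kg was the one treated sample above every control. The change was -0.38 (adjusted p = 0.233, limma), and without that replicate it was -0.49 (adjusted p = 0.0291).

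Col9a2, a cartilage collagen, had a change of -0.22 (adjusted p = 0.488, limma). Its values lay between 4.80 and 5.69 in controls (median 5.46), between 4.64 and 5.28 at 20 mg/kg (median 5.17), and at 5.05, 5.45, 5.20 and 4.95 at 30 mg/kg. Col7a1, the collagen of anchoring fibrils, had a change of 0.08 (adjusted p = 0.795, limma). Controls read between 4.51 and 5.03 (median 4.77), 20 mg/kg samples between 4.61 and 4.81 (median 4.70), and 30 mg/kg samples 4.78, 4.99, 5.26 and 4.94. Col17a1, a membrane collagen of hemidesmosomes, had a change of -0.06 (adjusted p = 0.813, limma). It read between 4.19 and 4.83 in controls (median 4.49), between 4.16 and 4.49 at 20 mg/kg (median 4.34), and 4.49, 4.47, 4.51 and 4.36 at 30 mg/kg. In all 3 genes the treated and control samples overlapped. The other 7 genes (Col6a4, Col8a1, Col9a1, Col10a1, Col13a1, Col16a1 and Col23a1) had changes within 0.10 of 0. The 3 probe sets of Col6a4 gave 0.07, -0.06 and 0.09.

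The 2 doses were also compared directly. Against control, 2 of the 25 collagen genes passed at 30 mg/kg, Col3a1 lower and Col12a1 higher, where 8.55% of all genes did (3.66% higher and 4.89% lower). Against control at 20 mg/kg, 2 passed, Col3a1 and Col1a1, both lower, where 1.18% of all genes did (0.524% lower). Between 30 and 20 mg/kg, 2 passed, both higher at 30 mg/kg, where 12.1% of all genes did (3.92% higher). These were Col12a1, with a difference of 0.83 ± 0.19 (SE; adjusted p = 0.0145, limma), and Col1a1, with 0.38 ± 0.11 (adjusted p = 0.0391). The difference in Col1a1 missed the threshold after median centring of the arrays (0.32, adjusted p = 0.0766) and in 8 fits that left out 1 array of either dose. That in Col12a1 missed it without 30 mg/kg replicate 4 (adjusted p = 0.0572). The comparisons with control share the control samples.

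Because the title numbers go with the dose, each dose was also set against the controls of its own numbers. For 30 mg/kg against controls 1 to 4, Col3a1 fell by 0.68 (adjusted p = 0.0356, limma), and it was the only 1 of 25 that passed, where 3.01% of all genes did (1.52% lower). Without control 2, 3 or 4 or 30 mg/kg replicate 3 or 4 that call was lost (highest adjusted p 0.0882), as it was with array weights (0.107). Col12a1 had a change of 0.74 there (adjusted p = 0.0737). For 20 mg/kg against controls 5 to 7, the change of Col3a1 was -0.72 (adjusted p = 0.0934) and that of Col1a1 -0.49 (adjusted p = 0.154). There 0 of the 25 passed with limma, as did 0.358% of all genes, and 3 of the 25 had an unadjusted p under 0.05, against 9.55% of all genes. With array weights 2 collagen genes passed, Col3a1 and Col1a1, where 1.62% of all genes did. The 2 same-number changes differed by 0.03 ± 0.24 (SE) for Col3a1 and 0.56 ± 0.32 for Col12a1. No gene of 14506 passed the test of that difference (limma), and 0 collagen genes against 6.69% of all genes had an unadjusted p under 0.05.

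**Figure D3:**
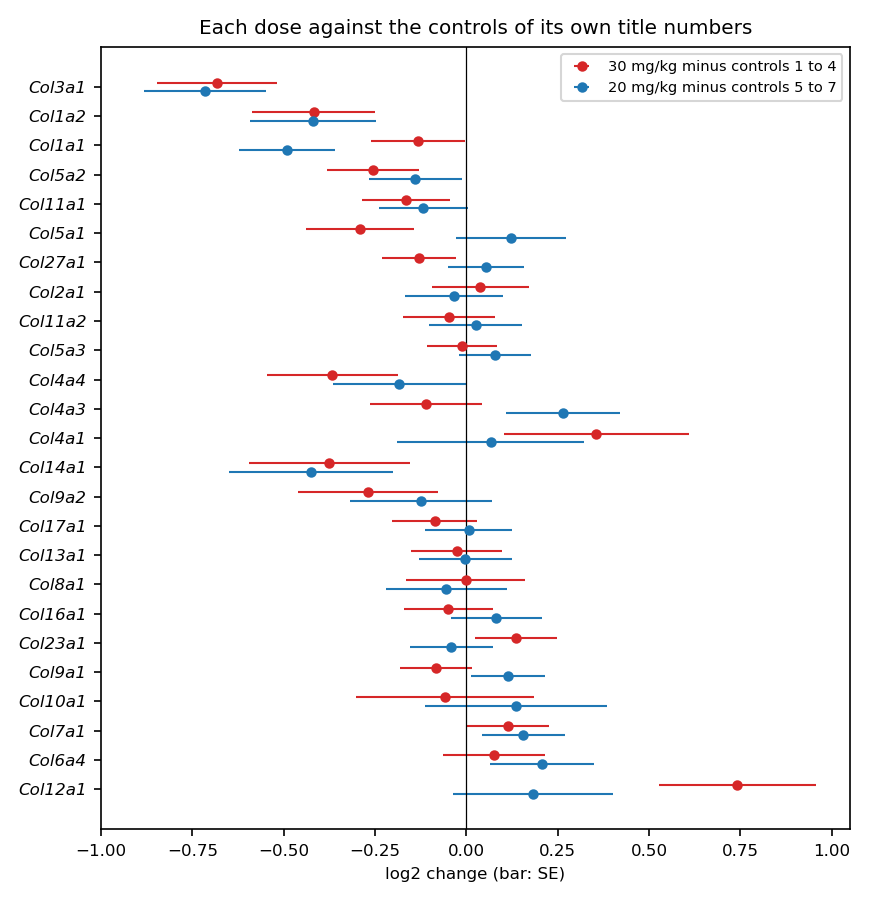
Log2 change of each collagen gene at 30 mg/kg against controls 1 to 4 (red) and at 20 mg/kg against controls 5 to 7 (blue), with SE bars (x axis, log2 units). Col3a1 lies at -0.68 and -0.72 in the 2 contrasts, and Col12a1 at 0.74 and 0.18.

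Genes that make, trim and degrade collagen were followed on lists of partners. Pcolce, the enhancer that speeds removal of the procollagen C-propeptide, fell by 1.08 ± 0.24 (SE; adjusted p = 0.0325, limma, both doses against control) and was the 1 of 8 processing genes that passed. It averaged 9.13 ± 0.76 in treated samples (SD, n = 10) and 10.22 ± 0.31 in controls (SD, n = 7). The adjusted p missed the threshold in 6 of 17 fits that left out 1 array, namely without control 1, 6 or 7, 30 mg/kg replicate 1, or 20 mg/kg replicate 8 or 10, with values up to 0.0977. It also missed it in a fit without sex (adjusted p = 0.0767). The lowest value, 7.38, was that of 30 mg/kg replicate 4, and 30 mg/kg replicate 2, at 10.05, lay inside the control range.

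Among 17 other matrix genes, 2 fell and none rose past the threshold, where 0.965% of all genes fell. Aspn, a small proteoglycan that binds collagen, fell by 1.03 ± 0.18 (SE; adjusted p = 0.0116), and Sparc, a collagen-binding glycoprotein, fell by 0.73 ± 0.14 (adjusted p = 0.0185; limma for both). Aspn averaged 4.07 ± 0.42 in treated samples and 5.10 ± 0.37 in controls (SD, n = 10 and 7), and 30 mg/kg replicate 4, at 4.98, was the one treated sample above the lowest control, at 4.62. Sparc averaged 9.95 ± 0.27 in treated samples and 10.68 ± 0.34 in controls. The median change of that list was -0.28, against -0.00 for all genes, and 8 of its 17 genes had a negative change with an unadjusted p under 0.05, as did 6.58% of all genes. With the title number as a block, the adjusted p was 0.0584 for Aspn and 0.0582 for Pcolce, so both missed the threshold. Sparc missed the threshold without control replicate 7 (adjusted p = 0.0586). Among female rats alone the change was -0.66 for Sparc (adjusted p = 0.174) and -0.80 for Pcolce (adjusted p = 0.214).

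Other partner lists had no gene past the threshold for both doses. Of 23 genes for folding and crosslinking 0 passed, with 3 higher and 1 lower at an unadjusted p under 0.05. There the collagen chaperone Serpinh1 had -0.79 (adjusted p = 0.0742) and the prolyl hydroxylase P4ha1 0.75 (adjusted p = 0.116). Of 16 genes for breakdown and its inhibitors 0 passed, with 2 higher and 1 lower at an unadjusted p under 0.05. The metalloproteinase inhibitors Timp2 and Timp1 had 0.32 (adjusted p = 0.243) and 1.39 (adjusted p = 0.269). At 30 mg/kg against all controls, Timp1 rose by 2.53 (adjusted p = 0.0150, limma) and Mmp13, a collagenase, by 0.30 (adjusted p = 0.0385). In that comparison 8.55% of all genes passed (3.66% higher), and genes of the other partner lists are not given for it. The 30 mg/kg samples of Timp1 read 8.10, 7.69, 11.82 and 11.47, against 6.62 to 7.87 in controls, so that replicates 3 and 4 stood far above the others and replicate 2 lay inside the control range. Mmp13 was dim, with 3.41 to 3.66 at 30 mg/kg against 3.10 to 3.31 in controls.

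Of 8 collagen receptors 0 passed, with 1 on each side at an unadjusted p under 0.05. The integrin chains Itgb1 and Itga11 had 0.19 (adjusted p = 0.324) and -0.26 (adjusted p = 0.342). Of 11 laminins and basement membrane partners 0 passed and 0 had an unadjusted p under 0.05, with Agrn at -0.22 (adjusted p = 0.466) and Lamc3 at -0.24 (adjusted p = 0.471). Of 14 genes of TGF-beta signalling, a pathway that raises collagen transcription, 0 passed, with 2 higher and 1 lower at an unadjusted p under 0.05. Its target Ccn2 had 0.76 (adjusted p = 0.0967) and the mediator Smad4 0.31 (adjusted p = 0.125).

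**Figure D4:**
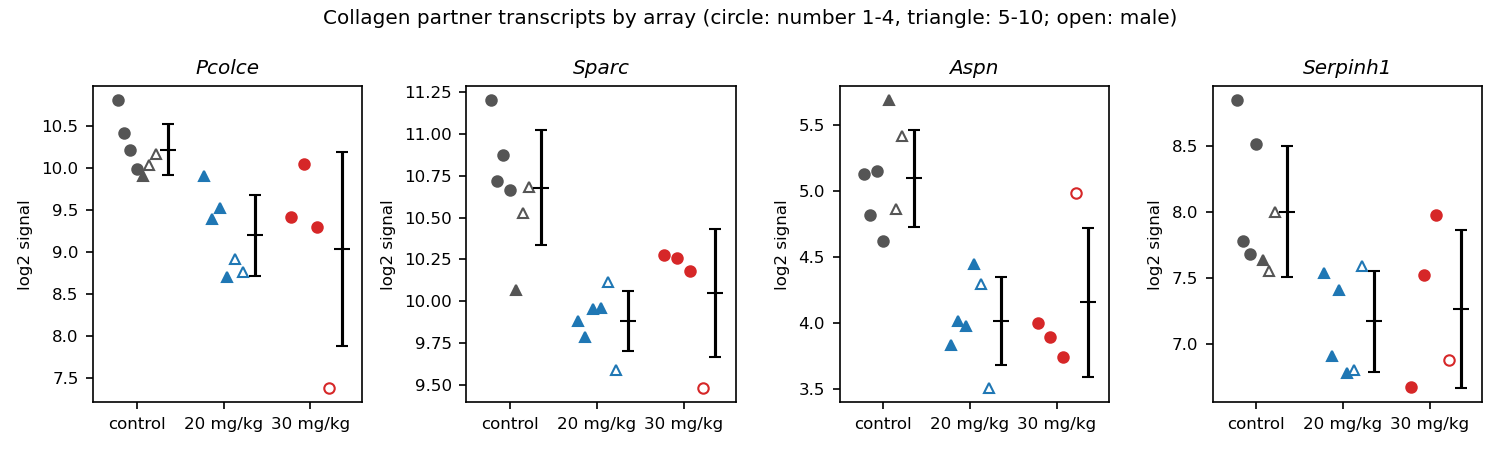
Log2 array values of collagen partner genes in each of the 17 samples (y axis), with control, 20 mg/kg and 30 mg/kg from left to right and bars for mean and SD. Circles are title numbers 1 to 4, triangles 5 to 10, and open symbols male samples. Sparc averages 9.95 in treated samples against 10.68 in controls, with some overlap between the groups.

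Markers of cells that make collagen were set beside these results. None of 7 fibroblast and none of 8 pericyte and smooth muscle markers passed for both doses against control, with 1 and 0 higher and 1 and 2 lower at an unadjusted p under 0.05. The mean of the fibroblast list lay between 5.94 and 6.39 at 30 mg/kg, against 6.14 to 6.40 in controls 1 to 4, and between 5.90 and 6.75 at 20 mg/kg, against 6.04 to 6.54 in controls 5 to 7. Within that list Dcn was above the upper quartile on all 17 arrays, while Mfap5 was below the median on 16 and Lum on 13. At 30 mg/kg against controls 1 to 4, the median change of the list was -0.34. There Pdgfra rose by 1.29 (adjusted p = 0.025, limma), Pi16 had 0.24 (adjusted p = 0.531), and the 5 others had changes from -0.49 (Lum) to -0.33 (Dpep1), none of which passed. The pericyte and smooth muscle list had a median change of -0.37 in that contrast, with 1 higher and 2 lower at an unadjusted p under 0.05. At 20 mg/kg against controls 5 to 7 its median was -0.08, with 0 on either side. Its mean lay between 6.98 and 7.91 at 30 mg/kg, against 7.40 to 7.79 in controls 1 to 4. At 20 mg/kg it lay between 7.16 and 7.82, against 7.22 to 7.60 in controls 5 to 7.

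The mean of the endothelial list lay between 7.59 and 7.97 at 30 mg/kg, against 7.08 to 7.51 in controls 1 to 4, and between 7.16 and 7.41 at 20 mg/kg, against 6.88 to 7.05 in controls 5 to 7. For both doses, 1 of 11 endothelial genes passed, Flt1, which rose by 0.74 (adjusted p = 0.0335, limma). The change of Col12a1 at 20 mg/kg against controls 5 to 7 was 0.18 (adjusted p = 0.882, limma), and its relation to the endothelial list was not tested. Of 3 erythroid genes 1 passed, Hbb, which fell by 2.40 (adjusted p = 0.0301), and the mean of that list lay between 4.87 and 6.09 at 30 mg/kg, against 6.13 to 7.28 in controls 1 to 4. 

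Of 10 macrophage markers 0 passed for both doses, with 3 lower at an unadjusted p under 0.05. Aif1 fell by 1.02 at 30 mg/kg against controls 1 to 4 (adjusted p = 0.0167, limma). There 4 of 10 were lower at an unadjusted p under 0.05, against 8.97% of all genes. At 20 mg/kg against controls 5 to 7, Aif1 fell by 1.49 (adjusted p = 0.00446, limma). It was the 1 of 10 lower at an unadjusted p under 0.05 there, with 0 higher. The median change of the list was -0.37 at 30 mg/kg and -0.17 at 20 mg/kg in these contrasts. The list mean lay between 6.54 and 7.54 at 30 mg/kg, against 7.0 to 7.31 in controls 1 to 4, and between 7.03 and 7.53 at 20 mg/kg, against 7.38 to 7.51 in controls 5 to 7. Of 9 adrenal cortex markers 0 passed for both doses, with 3 lower at an unadjusted p under 0.05, among them the receptor Mc2r at -1.05 (adjusted p = 0.083). That list's mean lay between 10.11 and 10.84 at 30 mg/kg, against 10.34 to 11.1 in controls 1 to 4, and between 9.70 and 10.38 at 20 mg/kg, against 10.11 to 10.39 in controls 5 to 7. The part of these cell types in the collagen results was not tested.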

How the data were processed

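The authors' deposited values are on a log2 scale. Per the submitters' processing notes they were made with RMA (no version given) in Affymetrix Expression Console 1.3.0.187, and they were used as deposited. The table holds 29214 probe sets on 17 arrays. The annotation pairs 15310 of them with 1 symbol and 323 with several, and does not list 13581. The probe set of highest mean was kept per symbol, which left 14506 genes. The number of arrays limits the precision.

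All tests were two-sided and came from limma 3.58.1 (lmFit, then eBayes; R 4.3.3) with sex as a term, with Benjamini-Hochberg adjustment over all genes and a threshold of 0.05. Both doses against control used treatment as the term. Each dose against control, and the doses against each other, used 3 groups. The same-number contrasts used 4 groups, with controls 1 to 4 apart from controls 5 to 7. The members and lists were chosen with earlier results of these data known. Array detail is given for members that passed any test and for the 5 of each class with the smallest p. From each partner list, genes that passed, or otherwise the 2 with the smallest p, are named. Markers, and genes named in a second comparison, are additions made after their values were seen. On simulated data for both doses against control, tested over 14506 genes with 200 changed, the fit recovered 76 at a log2 change of 0.5 and 181 at a change of 1.

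Alternatives were a fit without sex, female rats alone, a term or a block for title numbers, trended and robust variances, median centring, quantile normalization, array weights, other uses of probe sets, filters on dim genes, other thresholds, leaving out replicates 3 and 4 at 30 mg/kg and leaving out each array in turn.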

Additional observations from a re-analysis of the deposited data

Results flagged for a closer look

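In 4 of the 75 sets of a gene and a group checked, 1 array lay far from the rest of its group, where chance gives about 1 in 20, or 3.75. Col14a1 was highest in 20 mg/kg replicate 8, at 5.67 with the next sample at 4.73. Col9a2 was lowest in 20 mg/kg replicate 5, at 4.64 with the next at 5.06. Col1a2 was highest in control replicate 2, at 7.24 with the next at 6.86. Col8a1 was lowest in control replicate 6, at 3.78 with the next at 4.25.

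The doses differed in 2 collagen genes by a direct test between 30 and 20 mg/kg, where 12.1% of all genes passed. Col12a1 was 0.83 higher and Col1a1 0.38 higher at 30 mg/kg on the log2 scale. The difference in Col1a1 missed the threshold in 8 fits that left out 1 array and after median centring (0.32, adjusted p = 0.0766). The dose and the set of title numbers cannot be told apart in these differences.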

How the results depend on the processing

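Of 346 results followed for collagen genes under the settings other than leaving out 1 array, 10 lost and 3 gained a call. None turned sign with a call on either side. All collagen genes were followed for both doses against control. In the other comparisons only genes that passed with the main settings were followed, so calls gained there are not among the 3. For both doses against control, the number of collagen genes that passed was 1. It was 0 in female rats alone (0.0827% of all genes passed), 2 with the set of title numbers as a term (4.91%), 2 at an adjusted p under 0.10 (2.96%) and 3 with array weights (2.92%). Keeping only genes above the median removed Col3a1 itself and left 4 members, so that the count of 0 there says nothing about its call. The class medians there were -0.39 for the 2 fibrillar genes left and 0.36 for other collagens, which is Col12a1 alone. At an adjusted p under 0.10 the count was 4 for 30 mg/kg against control (14.2% of all genes), 4 between the doses (20.2%), 2 for 30 mg/kg against controls 1 to 4 (6.22%) and 1 for 20 mg/kg against controls 5 to 7 (0.738%). Array weights gave 5 between the doses (Col12a1, Col1a1, Col23a1, Col4a1 and Col4a4; 16.3% of all genes), 0 for 30 mg/kg against controls 1 to 4 (1.31%) and 2 for 20 mg/kg against controls 5 to 7 (1.62%). Median centring gave 1 between the doses (12.5%).

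Samples of the same title number did not deviate together (correlations of deviations from -0.183 to 0.0849 around the group means, and from -0.286 to 0.23 with controls 1 to 4 and 5 to 7 apart), so the numbers were not taken as pairs. With the replicate block, 0 collagen genes passed at 30 mg/kg against control, 0 at 20 mg/kg and 0 between the doses. The contrast of 30 mg/kg with controls 1 to 4 is then the same fit as 30 mg/kg against control. For both doses together Col3a1 was still called (-0.76, adjusted p = 0.0335, limma), while Aspn (0.0584) and Pcolce (0.0582) were not. The block compares samples only within a title number. The doses share no number, so the block could compare them only through the controls. The 20 mg/kg replicates numbered above 7 have no control of their number and did not bear on these comparisons. With the block, 0 of all 14506 genes passed at 20 mg/kg.

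Leaving out each array in turn gave counts of 1 to 2 for both doses, 2 to 3 for 30 mg/kg, 0 to 2 for 20 mg/kg, 0 to 3 between the doses, 0 to 2 for 30 mg/kg against controls 1 to 4, and 0 to 0 for 20 mg/kg against controls 5 to 7 and for the difference. Class medians ranged from -0.16 to -0.07 (fibrillar), -0.02 to 0.12 (type IV) and -0.04 to 0.03 (other). Col3a1 kept its call for both doses in all 17 fits (adjusted p from 0.00482 to 0.0236). Between the doses Col1a1 was lost without 30 mg/kg replicate 2, 3 or 4 or 20 mg/kg replicate 6, 7, 8, 9 or 10 (highest adjusted p 0.110). The cause was not tested. Quantile normalization and median centring for the 2 contrasts within groups were added after seeing the data.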

Other observations

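The fitted changes of male against female samples were negative in 24 of the 25 collagen genes, with a median of -0.14 (5 male against 12 female samples, treatment as a term). All male samples but 1 had title numbers of 5 or above, and this fit had no term for the set of title numbers. The part of the title numbers in these changes was not tested. For all genes, 52.2% were negative. None of the 25 passed (limma), where 0.241% of all genes did, and 1 of the 25 had an unadjusted p under 0.05, against 15.3% of all genes. After median centring 21 of 25 were negative, against 37.8% of all genes.

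Controls 5 to 7 had lower values than controls 1 to 4 in 20 of the 25 collagen genes, with a median difference of -0.19, and 53.2% of all genes were lower. None of the 25 passed (limma), where 3.61% of all genes did, and 3 had an unadjusted p under 0.05, against 21.3% of all genes. After median centring 18 of 25 were lower, against 43.6% of all genes. The lower quartile of the arrays lay between 3.65 and 3.76 in controls 5 to 7, against 3.78 to 3.91 in controls 1 to 4, and the part of this in the difference was not tested.

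After removal of the group means, the 2 chains of type I collagen, Col1a1 and Col1a2, correlated over the 17 samples with a Pearson r of 0.595 (permutation p = 0.0289, adjusted over 4 pairs 0.116) and a Spearman rho of 0.527 (permutation p = 0.057, adjusted 0.228). Without the 2 samples farthest from the median of Col1a1, r was 0.706. Col1a1 and Col3a1 gave r = 0.286 (permutation p = 0.357, adjusted 0.715) and rho = 0.32 (permutation p = 0.29, adjusted 0.58), with r = 0.527 without 2 samples. Col3a1 and Col4a1 gave r = -0.0868 (permutation p = 0.778, adjusted 0.778) and rho = -0.125 (permutation p = 0.688, adjusted 0.917). Col4a3 and Col4a4, a pair added after seeing the data, gave r = 0.108 (permutation p = 0.764, adjusted 0.778) and rho = -0.0221 (permutation p = 0.946, adjusted 0.946). Both genes of a pair were read from the same arrays, and the part of array-wide shifts in these values was not tested.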
